A study of Mus musculus with 20 samples.

Results

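Chlorpromazine (CPZ), an antipsychotic of the phenothiazine class that can cause cholestasis, was compared with its vehicle, phosphate-buffered saline (PBS), in mouse liver after 25 days of dosing. The comparison takes the 5 arrays labelled CPZ and the 5 labelled CPZ vehicle, which are 10 of the 20 arrays of the series and were chosen by their titles alone. All mice were male C57BL/6 animals of 10 weeks and 21 to 27 g, with no genetic change given in the labels. The CPZ group received 10 mg/kg of the drug in PBS by oral gavage for 25 days, and the PBS group received PBS alone for 25 days. Of the other 10 arrays, 5 are of mice given ethinylestradiol (EE2), a synthetic estrogen, at 3.70 mg/kg in sunflower oil for 25 days. The other 5 are of mice given the oil alone. These 10 arrays are set beside the CPZ response. Their spread also enters the standard error and p-value of every CPZ minus PBS difference. Each array is called by its group and the number in its title. Values for the CPZ group are given in the order of CPZ arrays 1, 3, 4, 11 and 12, and values for the PBS group in the order of PBS arrays 7, 10, 14, 19 and 20. Whether every sample is its own mouse is not stated in the labels. The p-values therefore rest on the spread among samples, and part of that spread may be technical. Time of day at dissection, which moves many liver genes, was not given in the labels.

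The liver meets most of an oral drug dose first, and hepatocytes answer many foreign compounds through a pair of nuclear receptors, CAR (Nr1i3) and PXR (Nr1i2). Once active, these receptors bind enhancers of cytochrome P450 genes of the Cyp2b, Cyp2c and Cyp3a families, whose enzymes oxidise drugs, and of genes for conjugation and export. Chlorpromazine is known to block dopamine receptors, which raises prolactin in blood, to collect in lysosomes as a cationic amphiphilic drug and to slow bile flow. Gene lists for these routes, for other liver functions and for the cell types of the tissue were therefore set beside the comparison.

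Few genes passed the test between CPZ and PBS, and most of these differed by less than 2-fold. Of 16464 named genes, 131 (0.796%) passed limma's test with a Benjamini-Hochberg adjusted p under 0.05 across all genes, of which 73 (0.443%) rose and 58 (0.352%) fell. A gene that passed is called below, and all changes are differences of mean log2 RMA levels, CPZ minus PBS. Only 7 called rises and 4 called falls were 2-fold or larger, and the median size among called genes was 0.43. Over all genes the median change was 0.007 and the median size 0.067. Without adjustment, 2003 genes (12.2%) had a limma p under 0.05. The 131 are therefore a count of genes detected, and small changes in further genes may have gone uncalled. The CPZ and PBS arrays did not overlap for 64 of the 73 called rises and 48 of the 58 called falls. Over the whole table they did not overlap for 490 genes (2.98%, with 1.57% higher and 1.41% lower). The larger share among called genes is partly built in, because the same arrays gave the calls. Of the called genes, 0 had a mean level below the table's lower quartile of 3.16. The oil mean lay on the CPZ side of the PBS mean for 56 of the 73 rises and 45 of the 58 falls. Part of this follows from the calling, because the same PBS arrays enter both differences. Against oil all 131 kept their direction, and 26 rises and 29 falls were called, beside 1.58% of all genes. The median rise was 0.46 against PBS and 0.31 against oil, and the median fall -0.41 and -0.29.

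The arrays were close to each other. Correlations across genes lay between 0.9946 and 0.9967 within the CPZ group, between 0.9944 and 0.9974 within the PBS group and between 0.9927 and 0.996 across them, and array medians lay between 4.48 and 4.54. Hepatocyte markers, such as the secreted proteins Ahsg and Trf, averaged 12.83 to 12.91 in CPZ arrays and 12.82 to 12.97 in PBS arrays, with 0 of 11 called. Pancreas markers averaged 3.71 to 3.84 in CPZ arrays and 3.71 to 3.87 in PBS arrays. Most of them lay near the lower end of the table, but Cela1 stood at 8.83 with CPZ and 8.85 with PBS. The number of calls rested on single arrays: without PBS array 14 there were 29 rises and 18 falls, without CPZ array 3 there were 34 and 19, without CPZ array 4 there were 45 and 20, without CPZ array 1 there were 45 and 41, and without PBS array 7 there were 48 and 43. Centring each array on its median gave 61 rises and 111 falls. Of the 131 calls, 37 held with each of the 10 arrays left out in turn. In these leave-outs 0 genes changed direction, but a gene whose groups do not overlap cannot do so when 1 array is dropped. The sample numbers of the CPZ arrays also run lower than those of the PBS arrays, and with sample number as a covariate 12 rises and 8 falls were called; the labels do not say what the numbers stand for.

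The largest called rise was of a drug-metabolising cytochrome P450 gene, Cyp2b10, and some Cyp2c genes were called with smaller rises. Cyp2b10, the mouse Cyp2b gene that serves as the standard readout of CAR, stood at 8.07, 9.17, 8.57, 8.42 and 8.53 in the CPZ arrays and at 4.43, 3.95, 4.95, 4.94 and 4.17 in the PBS arrays. The lowest CPZ array lay far above the highest PBS array. The mean was 8.55 ± 0.40 with CPZ and 4.49 ± 0.45 with PBS (SD, n = 5 each), a 16.8-fold rise (4.07 ± 0.25 SE on the log2 scale, limma adjusted p = 9.18e-09). Cyp2c55, another P450 of the Cyp2c cluster on chromosome 19, read 8.95, 9.71, 9.73, 9.92 and 9.45 with CPZ and 7.76, 7.68, 8.42, 8.44 and 7.76 with PBS. Its groups did not overlap and it rose 2.9-fold (1.54 ± 0.19, limma adjusted p = 0.000639). Cyp2c29, among the most abundant P450s of the male liver, rose by 0.43 ± 0.05 (limma adjusted p = 0.000816). All 5 CPZ arrays read 13.21 to 13.33 and all 5 PBS arrays 12.75 to 12.93. Cyp2c54 read 12.58, 12.76, 12.71, 12.37 and 12.76 with CPZ and 12.01, 12.13, 12.36, 11.31 and 12.15 with PBS, again without overlap (0.65 ± 0.14, limma adjusted p = 0.0268). The Cyp2c54 call was lost when any of 5 arrays was left out, with an adjusted p of at most 0.077, whereas the calls of Cyp2b10, Cyp2c55 and Cyp2c29 held with each array left out. Probes for close relatives such as the Cyp2c genes can share signal, so the values of single Cyp2c members are uncertain to that degree.

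**Figure D1:**
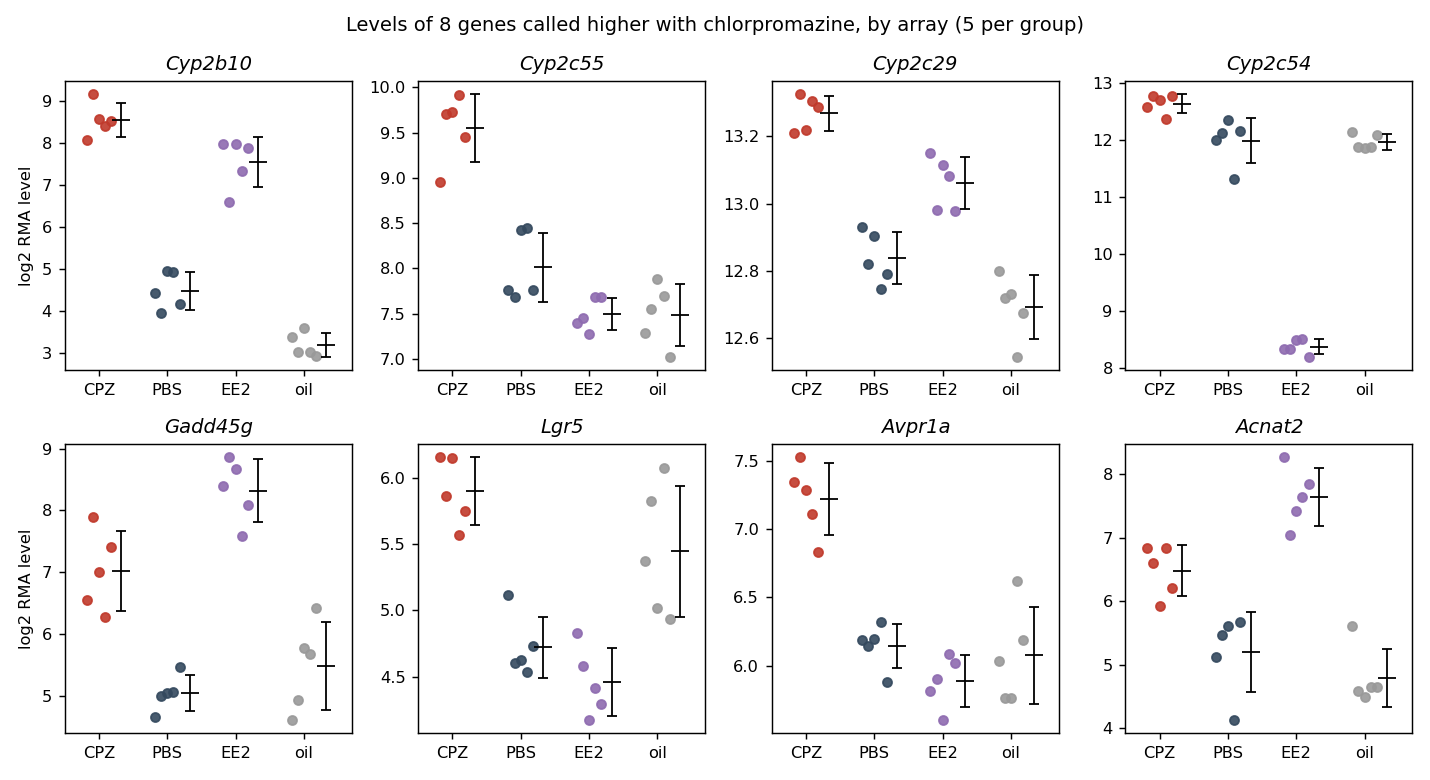
Log2 RMA level (vertical axis) of 8 genes called higher with chlorpromazine, by array, for the CPZ, PBS, EE2 and oil groups (5 arrays each); points are arrays, and the black mark and bar beside them are the mean and SD. CPZ arrays of Cyp2b10 sit between 8.07 and 9.17 and PBS arrays between 3.95 and 4.95, while the other genes differ by less.

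The promoters of the 3 called Cyp genes that RefSeq's promoter table (GRCm38.p6) holds are shown because these genes rose together. Each window covers 250 bases before and 50 bases after the annotated start, on the + strand. Capitals mark AGGTCA or AGTTCA, the hexamers that CAR and PXR bind in pairs with RXR, searched on both strands; 27.7% of all 32851 windows hold at least 1 of them.
Cyp2b10, chr7:25897408-25897707: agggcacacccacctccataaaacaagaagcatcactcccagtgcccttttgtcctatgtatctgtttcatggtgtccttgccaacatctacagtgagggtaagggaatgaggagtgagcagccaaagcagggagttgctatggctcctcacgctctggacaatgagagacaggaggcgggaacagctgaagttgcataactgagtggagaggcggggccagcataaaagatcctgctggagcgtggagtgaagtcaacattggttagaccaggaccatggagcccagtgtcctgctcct
Cyp2c55, chr19:39006769-39007068: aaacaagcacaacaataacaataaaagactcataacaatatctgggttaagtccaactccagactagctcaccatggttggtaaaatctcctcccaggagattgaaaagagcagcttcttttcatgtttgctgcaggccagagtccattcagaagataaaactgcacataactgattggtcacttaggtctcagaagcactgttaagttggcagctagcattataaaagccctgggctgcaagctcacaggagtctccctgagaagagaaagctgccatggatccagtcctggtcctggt
Cyp2c29, chr19:39286835-39287134: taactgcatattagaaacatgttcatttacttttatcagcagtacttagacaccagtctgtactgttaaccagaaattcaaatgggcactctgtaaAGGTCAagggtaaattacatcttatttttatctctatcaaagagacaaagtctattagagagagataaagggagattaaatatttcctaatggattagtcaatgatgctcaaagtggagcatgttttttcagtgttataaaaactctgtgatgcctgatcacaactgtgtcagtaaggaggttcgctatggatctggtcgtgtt
The Cyp2c29 window held 1 hexamer, AGGTCA at 154 bases before the start, and the Cyp2b10 and Cyp2c55 windows held 0. The paired form with a spacer of 4 bases (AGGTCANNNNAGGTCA, AGTTCANNNNAGTTCA and the mixed forms) was in none of the 3 and in at most 0.02% of all windows for any form. The known drug-responsive enhancer of Cyp2b10 lies farther upstream than this window reaches. These matches describe letters in the windows only.

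Beyond these P450s the list of CAR and PXR targets moved little. Of its 41 measured genes, 4 were called higher, the 4 Cyp genes above, and 0 lower, beside 0.443% and 0.352% of all genes. The median change was 0.06 against 0.007 over all genes. Cyp2c37 (0.58 ± 0.16, adjusted p = 0.0981) and Cyp2c50 (0.32 ± 0.10, adjusted p = 0.142) did not pass limma's test, although their CPZ and PBS arrays did not overlap. Of the 9 measured Cyp2c genes, 3 were called higher, beside 0.443% of all genes, and the median change was 0.32. Some targets lay lower without passing the test: Alas1, the rate-limiting enzyme of heme synthesis, averaged 11.14 ± 0.81 with CPZ and 12.21 ± 0.46 with PBS (SD, n = 5 each; limma adjusted p = 0.175). Cyp3a11, the usual readout of PXR, Cyp1a2 and the receptor genes Nr1i3 and Nr1i2 were not called, and 0 of 16 genes for CAR, PXR and their partners were. Of the 21 genes in enzyme families that metabolise chlorpromazine, 0 were called and the median change was -0.02. Cyp2b9, a Cyp2b gene mainly of female liver, read 6.44 in CPZ array 3 and 3.70 to 4.19 in the other CPZ arrays, against 3.56 to 3.82 in the PBS arrays. It was not called (limma adjusted p = 0.475).

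Gadd45g, a growth arrest and DNA damage gene, had the largest called rise after that of Cyp2b10. It read 6.55, 7.89, 7.00, 6.28 and 7.41 with CPZ and 4.66, 5.00, 5.05, 5.06 and 5.46 with PBS, with no overlap. This was a 3.94-fold difference (1.98 ± 0.32, limma adjusted p = 0.00454), and the call held with each array left out. Btg2, an antiproliferative p53 target, read 6.46, 6.41, 6.30, 6.61 and 6.49 with CPZ and 5.46, 5.52, 5.01, 6.35 and 5.91 with PBS. It averaged 6.45 ± 0.11 with CPZ and 5.65 ± 0.51 with PBS (SD, n = 5 each) and rose by 0.80 ± 0.18 (limma adjusted p = 0.0399). PBS array 19 overlapped the CPZ arrays, and the Btg2 call was lost when any of 8 arrays was left out. CPZ minus oil was 1.54 for Gadd45g, called there (limma adjusted p = 0.016), and 0.52 for Btg2, not called (adjusted p = 0.191). Of 18 measured genes of the p53, DNA damage and Gadd45 list, Gadd45g and Btg2 were the only calls against PBS, beside 0.443% of all genes called higher. The median change was 0.08. Bbc3, which encodes the cell death protein PUMA, lay 0.56 ± 0.14 higher and Gadd45a stood at 6.83 ± 0.29 with CPZ and 7.63 ± 0.57 with PBS, and neither passed limma's test (adjusted p = 0.0689 and 0.176). The immediate early genes, which respond within minutes to many stimuli, had 0 calls of 20 and a median of 0.17. Fos had the largest difference of them (1.65 ± 0.42), with 7.39, 6.48, 4.73, 5.92 and 5.02 in the CPZ arrays and 3.89, 4.39, 4.02, 4.40 and 4.61 in the PBS arrays. All CPZ arrays were higher, by widely different amounts, and limma gave an adjusted p of 0.0656.

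Avpr1a, the vasopressin receptor of hepatocytes, read 7.34, 7.53, 7.29, 7.11 and 6.83 with CPZ and 6.19, 6.14, 6.19, 6.32 and 5.88 with PBS. The groups did not overlap and the difference was 1.08 ± 0.15 (limma adjusted p = 0.00136). With Cyp2b10 and Cyp2c55, Avpr1a was 1 of the 3 genes called in every alternative tried, including a test against a minimum change of 0.25. Lgr5, a receptor for R-spondins that marks pericentral, Wnt-active hepatocytes, read 6.16, 5.86, 6.15, 5.57 and 5.75 with CPZ and 5.11, 4.61, 4.63, 4.53 and 4.73 with PBS. It rose by 1.18 ± 0.19 (limma adjusted p = 0.00407), and it stood at 5.44 in the oil arrays, between both groups. None of the other 20 measured Wnt and pericentral genes was called: Glul and Axin2, targets of the same pathway, each stood 0.07 higher without passing, and the median of the 21 was 0.06. Slc2a1, the GLUT1 glucose transporter, rose by 0.77 ± 0.12, at 6.67 ± 0.16 with CPZ and 5.90 ± 0.24 with PBS (SD, n = 5 each; limma adjusted p = 0.00349), and averaged 6.42 in the oil arrays. The vitamin B1 transporter Slc19a2 (0.37) and the phosphate and urate transporter Slc17a1 (0.50) were also called higher.

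Acnat2, a peroxisomal acyltransferase related to the enzyme that joins bile acids to taurine, read 6.84, 6.61, 5.92, 6.85 and 6.21 with CPZ and 5.13, 5.47, 5.62, 4.13 and 5.68 with PBS. It rose by 1.28 ± 0.28 (limma adjusted p = 0.0365), without overlap, and the call was lost when any of 6 arrays was left out. 1700067K01Rik, a gene of no assigned role here, read 4.00, 5.30, 4.39, 4.65 and 4.84 with CPZ and 3.71, 3.16, 3.64, 3.43 and 3.56 with PBS (1.14 ± 0.18, limma adjusted p = 0.0049). Its level is low on this scale, and its call held with each array left out. The chemokine gene Cxcl13 read 5.90, 6.01, 5.72, 6.65 and 5.80 with CPZ and 4.44, 5.70, 4.92, 4.93 and 5.36 with PBS. Its groups were close to touching, and its call (0.95 ± 0.22, limma adjusted p = 0.0482) was lost when any of 8 arrays was left out. Tnfaip2, a gene induced by tumour necrosis factor in endothelial and myeloid cells, read 7.65, 7.10, 7.62, 7.03 and 7.06 with CPZ and 6.46, 6.16, 6.10, 6.85 and 6.52 with PBS (0.87 ± 0.15, limma adjusted p = 0.00636).

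Lrfn3, which encodes a cell adhesion protein best known at synapses, had a narrow spread: 4.66, 4.97, 4.90, 4.55 and 4.85 with CPZ and 4.01, 3.88, 3.94, 3.95 and 3.91 with PBS (0.85 ± 0.14, limma adjusted p = 0.00576). Abtb2, an ankyrin repeat and BTB domain gene, read 5.35, 5.64, 5.45, 5.02 and 5.55 with CPZ and 4.82, 4.52, 4.32, 4.67 and 4.51 with PBS (0.83 ± 0.13, limma adjusted p = 0.00406). Both calls held with each array left out. Fam89a read 6.06, 6.09, 6.83, 5.79 and 6.38 with CPZ and 5.63, 5.57, 5.47, 5.46 and 4.95 with PBS (0.81 ± 0.17, limma adjusted p = 0.0224), and its call was lost without PBS array 14, CPZ array 4 or CPZ array 12 (adjusted p up to 0.0561). Smaller called rises included Pnp, the purine nucleoside phosphorylase (0.41 ± 0.06, limma adjusted p = 0.00406), Selenoi, which makes phosphatidylethanolamine (0.29), Elovl1, which elongates very long fatty acids (0.23), and Creb3l2, a membrane-bound transcription factor of the endoplasmic reticulum (0.48).

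Some markers of Kupffer cells, the resident macrophages of the liver, rose with CPZ. Cd68, a lysosomal protein of macrophages, read 7.15, 6.51, 6.65, 7.49 and 6.75 with CPZ and 5.78, 6.38, 5.92, 6.22 and 6.28 with PBS. It rose by 0.79 ± 0.16 (limma adjusted p = 0.0195). Adgre1, the F4/80 antigen, read 7.11, 7.38, 7.22, 7.86 and 7.18 with CPZ and 6.42, 6.91, 6.67, 6.79 and 6.83 with PBS and rose by 0.63 ± 0.14 (limma adjusted p = 0.0325). For both genes every CPZ array was above every PBS array, with CPZ array 11 the highest. These were the only calls among 19 macrophage markers, beside 0.443% of all genes called higher. The median change of the list was 0.47 against 0.007 over all genes. The mean level of the list was 6.52 to 7.12 in CPZ arrays and 6.17 to 6.47 in PBS arrays, and it was 6.38 to 6.61 in oil arrays. Lyz2 (0.69 ± 0.17), Vsig4 (0.59 ± 0.15) and Clec4f (0.47 ± 0.13), the last 2 restricted to Kupffer cells in mouse liver, had groups without overlap but limma adjusted p of 0.058, 0.0699 and 0.0898. Gpnmb (-0.22 ± 0.11) also had groups without overlap but lay lower with CPZ. Slc40a1, the iron exporter, likewise had a lower mean with CPZ (-0.27 ± 0.09), with overlap, and neither passed (limma adjusted p = 0.432 and 0.153). Marco, a scavenger receptor, averaged 5.26 ± 0.58 with CPZ and 4.02 ± 0.59 with PBS (SD, n = 5 each; limma adjusted p = 0.0734).

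Complement genes made by macrophages gave calls as well. C1qa, a chain of the first complement component, read 9.20, 9.09, 8.98, 9.63 and 8.95 with CPZ and 8.31, 8.52, 8.47, 8.62 and 8.73 with PBS, and rose by 0.64 ± 0.12 (limma adjusted p = 0.0168). Cfp, which encodes properdin, rose by 0.70 ± 0.15 (limma adjusted p = 0.0242). The oil means of C1qa and Cfp, 8.78 and 7.04, lay between their CPZ and PBS means. Neither gene was called against oil (CPZ minus oil 0.39 and 0.31, limma adjusted p = 0.133 and 0.379). C1qc (0.62 ± 0.16) and C1qb (0.60 ± 0.15) did not overlap between groups and had limma adjusted p of 0.0674 and 0.0696. Of 20 complement genes 2 were called higher, beside 0.443% of all genes, and the median change was 0.02. Called genes outside the lists and known in myeloid cells were Wfdc17 (0.77 ± 0.11, limma adjusted p = 0.00258), Tyrobp, the adaptor of myeloid receptors (0.58 ± 0.13, limma adjusted p = 0.039), and Ncf1, a subunit of the phagocyte oxidase (0.43 ± 0.09, limma adjusted p = 0.0243); they were picked after their values were seen. In whole liver RNA, more cells of a type and more RNA per cell cannot be told apart. Lymphocyte markers had 0 calls of 17 with a median of -0.01, neutrophil markers 0 of 13 with a median of 0.06, and stellate cell and fibrosis markers 0 of 22 with a median of 0.007.

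Small rises were called among endothelial markers, some of them of the sinusoids, the liver's capillaries. Clec4g, a lectin of liver sinusoidal endothelium, read 10.24, 10.20, 10.18, 10.34 and 10.14 with CPZ and 9.80, 9.87, 9.67, 9.72 and 9.75 with PBS. It rose by 0.45 ± 0.08 (limma adjusted p = 0.00598). Stab2, the sinusoidal receptor that clears hyaluronan, read 8.04, 8.17, 7.93, 8.06 and 8.05 with CPZ and 7.63, 7.66, 7.40, 7.71 and 7.53 with PBS and rose by 0.46 ± 0.08 (limma adjusted p = 0.0102). Both groups were tight and well apart for these genes. Fcgr2b, an inhibitory Fc receptor that sinusoids use to clear immune complexes, rose by 0.42 ± 0.09 (limma adjusted p = 0.0216). Tek, the angiopoietin receptor, rose by 0.43 ± 0.09 (limma adjusted p = 0.0374). Of 21 endothelial markers 4 were called higher, beside 0.443% of all genes, 8 had CPZ arrays all above the PBS arrays, beside 1.57% of all genes, and the median change was 0.22. The mean level of the list was 6.20 to 6.26 in CPZ arrays and 5.95 to 6.12 in PBS arrays.

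The oil arrays bear on the endothelial and macrophage values. The endothelial list averaged 6.10 to 6.24 in the 5 oil arrays, overlapping both groups. Fcgr2b averaged 8.36 with CPZ, 7.94 with PBS and 8.33 with oil. Tek averaged 6.86 with CPZ, 6.43 with PBS and 6.78 with oil. Clec4g averaged 10.22 with CPZ, 9.76 with PBS and 10.03 with oil. For these genes the oil mean lay closer to the CPZ mean than to the PBS mean, and CPZ minus oil was 0.03 for Fcgr2b, 0.08 for Tek and 0.19 for Clec4g, none of them called. The median of oil minus PBS was 0.16 over the endothelial list and 0.16 over the macrophage list. Adgre1 averaged 7.35 with CPZ, 6.72 with PBS and 7.06 with oil, and Cd68 averaged 6.91 with CPZ, 6.12 with PBS and 6.47 with oil. Neither was called against oil (CPZ minus oil 0.29 and 0.44, limma adjusted p = 0.374 and 0.21). Oil and PBS are different vehicles, and of all genes 8 (0.0486%) were called between them. Mrc1, the mannose receptor shared by sinusoidal endothelium and Kupffer cells, rose by 0.46 ± 0.09 against PBS (limma adjusted p = 0.0138) and stood at 8.87 with CPZ, 8.41 with PBS and 8.76 with oil. Further called rises known from endothelium were Bmp2 (0.44), a signal that acts on hepcidin in hepatocytes, Notch1 (0.36) and Adgrl4 (0.34). These were picked after their values were seen.

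**Figure D2:**
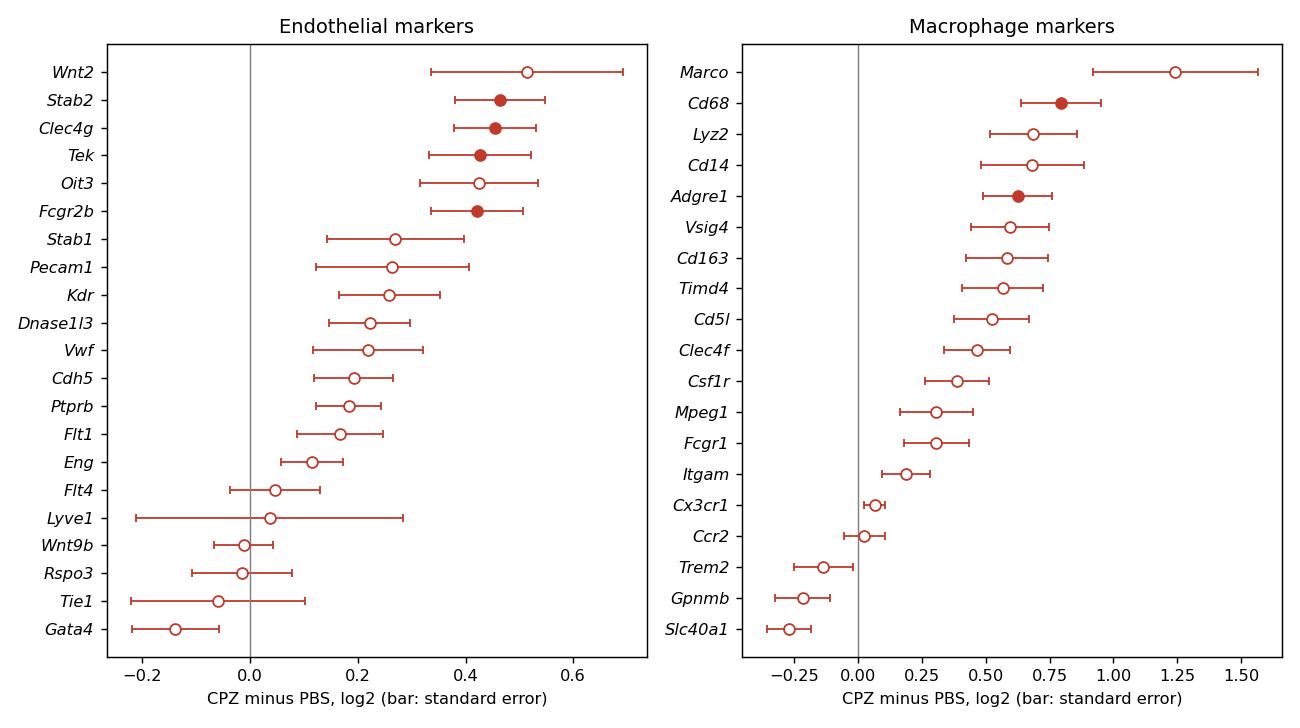
Difference CPZ minus PBS on the log2 scale (horizontal axis) for each measured endothelial marker (left panel) and macrophage marker (right panel); bars are standard errors of the limma fit, and filled points passed its adjusted p of 0.05. Filled points are Stab2, Clec4g, Tek and Fcgr2b in the left panel and Cd68 and Adgre1 in the right panel, and most open points also lie above 0.

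The largest falls were of genes from different processes. Nrep, a neuronal regeneration related protein, read 8.01, 7.70, 6.97, 7.90 and 6.85 with CPZ and 8.63, 8.78, 9.09, 8.57 and 8.44 with PBS, a difference of -1.21 ± 0.25 (limma adjusted p = 0.0216). Cib3, a calcium and integrin binding protein, read 5.98, 7.46, 7.38, 8.06 and 7.11 with CPZ and 8.19, 8.59, 8.13, 8.71 and 8.40 with PBS (-1.21 ± 0.26, limma adjusted p = 0.0341). CPZ array 1 was the lowest for Cib3 and CPZ array 11 nearly reached the PBS arrays, and the call was lost when any of 8 arrays was left out. Nmrk1, the kinase that starts NAD synthesis from nicotinamide riboside, read 7.58, 7.67, 7.10, 8.00 and 7.25 with CPZ and 8.10, 8.74, 8.97, 8.41 and 8.61 with PBS (-1.04 ± 0.20, limma adjusted p = 0.0168). Its call was lost without PBS array 14 or CPZ array 4 (adjusted p up to 0.0516). Nmnat3, the mitochondrial enzyme of a later step of NAD synthesis, fell by 0.51 (limma adjusted p = 0.0406), and that call was lost when any of 7 arrays was left out. Arhgef26 read 8.00, 7.41, 7.54, 8.39 and 7.78 with CPZ and 8.82, 8.99, 9.08, 8.49 and 8.84 with PBS (-1.02 ± 0.22, limma adjusted p = 0.0302). It averaged 8.20 in the oil arrays, so CPZ minus oil was -0.38 and not called.

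Pcsk4, a proprotein convertase best known in germ cells, had the smallest spread among the large falls: 5.69, 5.88, 5.84, 5.78 and 5.92 with CPZ and 6.58, 6.67, 6.97, 6.56 and 6.52 with PBS (-0.84 ± 0.12, limma adjusted p = 0.00258). Its call held with each array left out and with sample number as a covariate. Gnat1, the rod transducin subunit, read 5.61, 5.26, 5.45, 6.14 and 5.80 with CPZ and 6.60, 6.15, 6.49, 6.62 and 6.62 with PBS (-0.85 ± 0.17, limma adjusted p = 0.0229). Clec2h, a C-type lectin, read 7.65, 7.66, 7.78, 7.48 and 7.88 with CPZ and 8.10, 8.62, 8.26, 9.14 and 8.54 with PBS (-0.84 ± 0.19, limma adjusted p = 0.0384). In both genes the groups did not overlap, although CPZ array 11 and PBS array 10 nearly met for Gnat1. Hectd2os, an antisense RNA, read 6.80, 6.66, 6.95, 6.19 and 6.64 with CPZ and 7.30, 7.30, 7.92, 7.30 and 7.13 with PBS (-0.74 ± 0.14, limma adjusted p = 0.0166). The remaining members of the 14 largest falls were Arhgap6 (-0.69), Lrrc28 (-0.68), Pprc1, a coactivator related to PGC-1 (-0.67), Gprin3 (-0.61), Fam81a (-0.60) and Gtpbp4 (-0.58). Their limma adjusted p lay between 0.00598 for Gprin3 and 0.0441 for Pprc1. Of these, Lrrc28 and Gtpbp4 overlapped between groups, with Lrrc28 at 6.40, 6.62, 6.57, 6.89 and 6.68 with CPZ and 7.17, 7.42, 7.60, 6.88 and 7.51 with PBS.

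Gprin3 read 7.54, 7.98, 7.94, 7.91 and 8.18 with CPZ and 8.55, 8.45, 8.46, 8.70 and 8.41 with PBS, and Fam81a read 3.93, 4.19, 4.09, 4.25 and 4.21 with CPZ and 5.05, 4.55, 4.84, 4.64 and 4.59 with PBS. Neither overlapped, and both calls held with each array left out. Pprc1 read 6.10, 6.48, 6.17, 6.57 and 6.15 with CPZ and 6.89, 6.91, 7.37, 6.72 and 6.92 with PBS, and Arhgap6 read 4.40, 4.44, 4.13, 4.39 and 4.57 with CPZ and 4.94, 4.89, 5.03, 5.82 and 4.70 with PBS. Gtpbp4, a nucleolar GTPase of ribosome assembly, read 7.53, 7.16, 7.15, 7.55 and 6.96 with CPZ and 7.94, 7.80, 7.97, 8.02 and 7.54 with PBS. Other called falls known in ribosome assembly, picked after their values were seen, were Nmd3, the export adaptor of the large subunit (-0.39 ± 0.05, limma adjusted p = 0.0018), Riok2, a kinase of small subunit maturation (-0.37 ± 0.06, limma adjusted p = 0.00792), and the nucleolar GTPase gene Gnl3 (-0.42 ± 0.08, limma adjusted p = 0.019). For Nmd3 and Riok2 the calls held with each array left out. Also called lower were the repressor genes Bach1 (-0.51) and Irf2 (-0.42), the iron regulator Ireb2 (-0.33), the lysosomal arylsulfatase Arsa (-0.37) and the mitochondrial adenylate kinase Ak4 (-0.47).

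Glycogen and autophagy each gave 1 call. Gys2, the liver glycogen synthase, read 9.84, 9.86, 9.91, 10.00 and 9.94 with CPZ and 10.18, 10.35, 10.47, 10.55 and 10.33 with PBS. The groups were apart and the fall was 0.47 on the log2 scale (-0.47 ± 0.06, limma adjusted p = 0.00136), held with each array left out and with sample number as a covariate. It was the only call of 20 glucose metabolism genes, whose median was -0.06. Ulk1, the kinase that starts autophagy, read 5.96, 5.99, 6.11, 6.00 and 6.17 with CPZ and 6.23, 6.34, 6.37, 6.58 and 6.59 with PBS (-0.38 ± 0.07, limma adjusted p = 0.0187). It was the only call of 15 autophagy genes, whose median was -0.003, and without CPZ array 3 its adjusted p was 0.0561.

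Clock genes form a feedback loop in liver cells in which Arntl and Clock drive Per, Cry, Nr1d and the output factors Dbp, Tef and Hlf, which peak at other times of day. Tef read 7.18, 7.23, 7.18, 7.41 and 7.12 with CPZ and 7.48, 7.54, 7.53, 7.48 and 7.61 with PBS and fell by 0.30 on the log2 scale (limma adjusted p = 0.0243). Dbp read 10.13, 10.04, 10.07, 10.51 and 10.10 with CPZ and 10.35, 10.73, 10.64, 10.63 and 10.62 with PBS, and fell by 0.43 (limma adjusted p = 0.0441). CPZ array 11 stood apart from the other CPZ arrays for Dbp and overlapped the PBS arrays. These were the 2 calls of 23 clock and output genes, beside 0.352% of all genes called lower. The median change of the 23 was -0.18 against 0.007 over all genes. Each call was lost when any of 7 (Tef) or 8 (Dbp) arrays was left out. Other genes of the loop and its output lay lower without passing limma's test: Wee1 by -0.60 ± 0.14 (adjusted p = 0.0503), Per2 by -0.49 ± 0.12 (adjusted p = 0.0531), Ciart by -0.65 ± 0.19 (adjusted p = 0.103) and Nr1d2 by -0.19 ± 0.06 (adjusted p = 0.143). Arntl (0.56 ± 0.14, adjusted p = 0.0659) and Clock (0.33 ± 0.10, adjusted p = 0.148), of the activating limb, lay higher. Against oil, CPZ minus oil was -0.47 for Tef, -0.50 for Dbp, -0.90 for Ciart and 0.68 for Arntl, each called there (as were 260 genes, 1.58%, over the table), with the same CPZ arrays in both differences. Because dissection times are not given, time of day and treatment cannot be told apart here.

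Both RefSeq promoter windows of Tef (GRCm38.p6, + strand, 250 bases before to 50 after each start) are shown because Tef passed the test and its windows hold CACGTG, the E-box that Arntl and Clock bind. Capitals mark CACGTG, which reads the same on both strands and occurs in 7.15% of all windows.
Tef, chr15:81802423-81802722: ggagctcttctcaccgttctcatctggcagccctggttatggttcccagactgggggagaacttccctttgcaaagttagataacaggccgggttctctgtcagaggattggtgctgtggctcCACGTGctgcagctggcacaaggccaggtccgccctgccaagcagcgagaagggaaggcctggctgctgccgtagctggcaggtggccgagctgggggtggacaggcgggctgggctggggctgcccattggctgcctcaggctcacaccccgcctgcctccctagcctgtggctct
Tef, chr15:81811164-81811463: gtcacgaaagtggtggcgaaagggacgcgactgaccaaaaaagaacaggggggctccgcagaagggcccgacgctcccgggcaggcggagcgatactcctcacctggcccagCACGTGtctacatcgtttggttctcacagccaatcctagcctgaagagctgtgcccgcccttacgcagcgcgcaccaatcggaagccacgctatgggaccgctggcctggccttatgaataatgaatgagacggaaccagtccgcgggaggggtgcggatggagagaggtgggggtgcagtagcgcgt
The E-box lies 127 bases before the start of the window printed first and 138 bases before the other. The Dbp window held 0. Neither gene's windows held TTATGTAA, the D-box of Dbp, Tef and Hlf, found in 0.94% of windows.

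**Figure D3:**
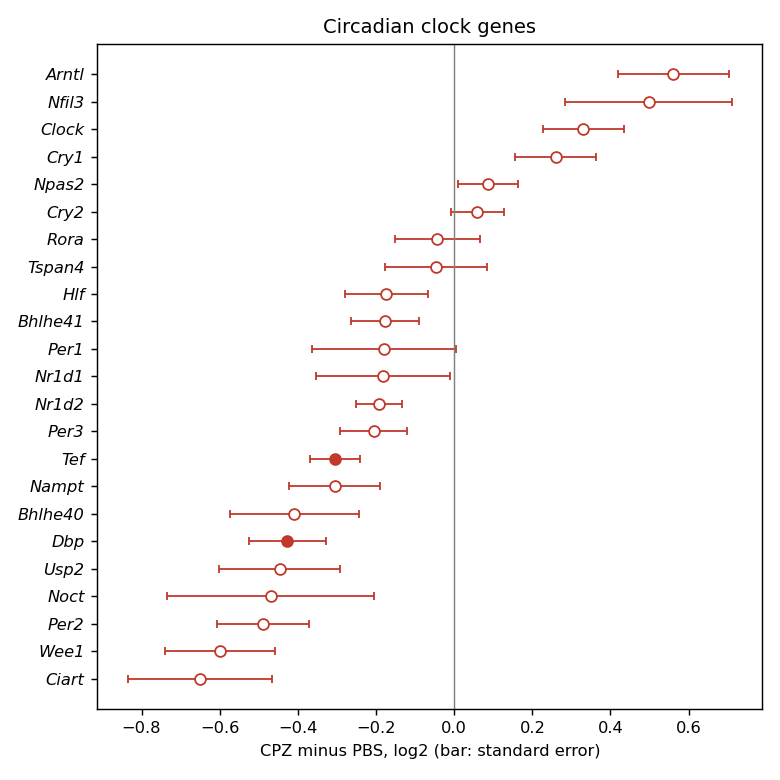
Difference CPZ minus PBS on the log2 scale (horizontal axis) for the 23 measured clock and output genes; bars are standard errors of the limma fit, and filled points passed its adjusted p of 0.05. Arntl, Nfil3 and Clock lie above 0, the output genes lie below, and the filled points are Tef and Dbp.

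Bile acid genes, of interest because the drug can slow bile flow, gave 1 call. Of 20 bile acid synthesis genes Acnat2 was the only call. Cyp7a1, which catalyses the first and limiting step of the main bile acid pathway, read 9.14, 8.41, 9.07, 9.60 and 8.90 with CPZ and 10.32, 10.15, 10.27, 9.27 and 9.55 with PBS. The groups overlapped and the difference of -0.89 ± 0.31 did not pass (limma adjusted p = 0.201). Of 23 bile acid and organic ion transporters 0 were called, with a median of -0.03. Abcc2, the canalicular exporter of conjugates, read 10.59 to 10.68 in the CPZ arrays and 10.74 to 11.35 in the PBS arrays, without overlap, but PBS array 7 stood apart at 11.35 and limma gave an adjusted p of 0.179. Nr1h4, the bile acid receptor FXR, was likewise lower in every CPZ array (9.54 to 9.71) than in every PBS array (9.78 to 9.92), with a difference of -0.21 ± 0.07 that did not pass (limma adjusted p = 0.202). Of 13 bile acid signalling genes 0 were called. Cholangiocyte markers, which rise in many forms of cholestasis, had 0 calls of 14 and a median of 0.002.

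The lipid lists gave 1 call, and Selenoi and Elovl1 above, also of lipid synthesis, were called outside them. Apoa4, the lipoprotein gene that responds to liver fat, read 10.32, 10.81, 10.12, 10.39 and 10.07 with CPZ and 9.66, 9.89, 9.58, 8.88 and 9.83 with PBS and rose by 0.78 ± 0.17 (limma adjusted p = 0.0374). PBS array 19 was the lowest, and the call was lost when any of 7 arrays was left out. There were 0 calls among 16 cholesterol synthesis genes (median 0.09), 23 fatty acid synthesis genes (median -0.05), 27 PPARalpha targets (median 0.02), 16 phospholipid synthesis genes (median 0.04) and 16 lipid droplet genes (median -0.003). Cyp4a14, a PPARalpha target, averaged 9.47 ± 1.20 with CPZ and 7.70 ± 1.46 with PBS (SD, n = 5 each) and did not pass (limma adjusted p = 0.205). The 26 lysosomal and phospholipidosis genes had 0 calls and a median of 0.04. Lpin1, a phosphatidate phosphatase, stood at 9.53 ± 0.46 with CPZ and 10.46 ± 0.47 with PBS without passing (limma adjusted p = 0.0699).

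The drug's known receptor targets are genes of low level in this tissue. The 16 measured dopamine, serotonin, histamine, adrenergic and muscarinic receptor genes averaged 3.24 to 3.32 in CPZ arrays and 3.26 to 3.31 in PBS arrays, close to the table's lower quartile of 3.16, and 0 were called. Prolactin and growth hormone signalling had 0 calls of 17. Its lowest-p members were Socs3 (0.99 ± 0.25, limma adjusted p = 0.0699), Igf1 (-0.20 ± 0.06, adjusted p = 0.098) and Onecut1 (-1.58 ± 0.52, adjusted p = 0.171), the last 2 without overlap between groups. Male-biased and female-biased liver genes, which follow growth hormone, had 0 calls of 16 and of 19. There were also 0 calls in the lists for AhR targets, NRF2 targets, glutathione S-transferases, the unfolded protein response, heat shock, cell cycle, interferon response, coagulation, oxidative phosphorylation, amino acid catabolism, iron, glucocorticoid targets and periportal hepatocytes, with medians between -0.09 and 0.21. The glucocorticoid targets were at the upper end of that range. With 0.796% of all genes called, 0 calls are usual for lists of these sizes and do not set a list apart.

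**Figure D4:**
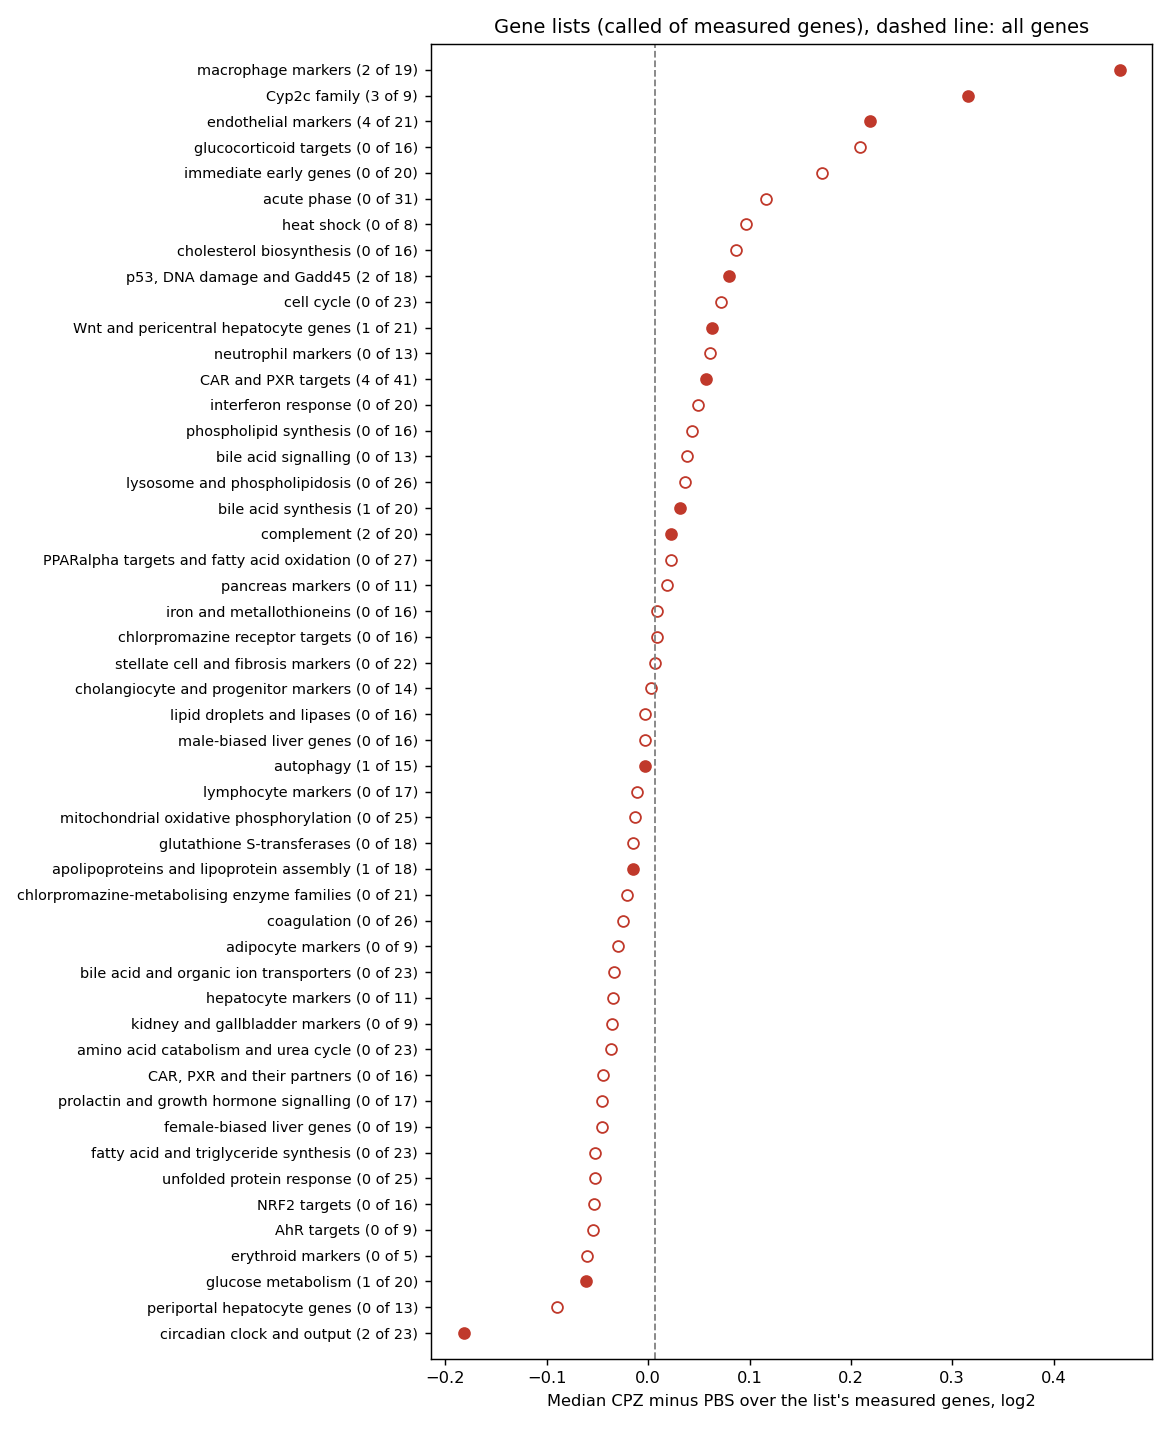
Median difference CPZ minus PBS on the log2 scale (horizontal axis) over the measured genes of each of 50 lists, with the number called of the number measured in brackets; filled points have at least 1 called gene, and the dashed line is the median of all genes at 0.007. Macrophage markers (0.47), Cyp2c genes (0.32) and endothelial markers (0.22) lie farthest above the line and clock genes (-0.18) farthest below it.

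The acute phase genes, secreted by hepatocytes during inflammation, split the arrays in both groups. Lcn2, lipocalin 2, read 10.13, 5.01, 5.86, 10.41 and 6.34 with CPZ and 5.78, 5.72, 5.81, 5.43 and 9.39 with PBS. CPZ arrays 1 and 11 and PBS array 20 were high and the other 7 were low. Saa1, serum amyloid A, read 12.68, 8.27, 9.62, 12.04 and 10.03 with CPZ and 10.61, 10.20, 9.88, 10.41 and 12.72 with PBS, and was highest in the same 3 arrays. Of 31 acute phase genes 0 were called, with a median of 0.12, and the list averaged 9.53 to 10.38 in CPZ arrays and 9.51 to 10.15 in PBS arrays. With these 3 arrays left out, which leaves 3 CPZ and 4 PBS arrays and was chosen after the data were seen, 49 rises and 55 falls were called, and 59 of the 131 calls were among them. Cyp2b10, Cyp2c55, Cyp2c29, Gadd45g, Avpr1a, Lgr5, Gys2, Nmd3 and Wfdc17 kept their calls there, while Cd68, Adgre1, C1qa, Clec4g, Stab2, Fcgr2b and Tek did not pass.

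**Figure D5:**
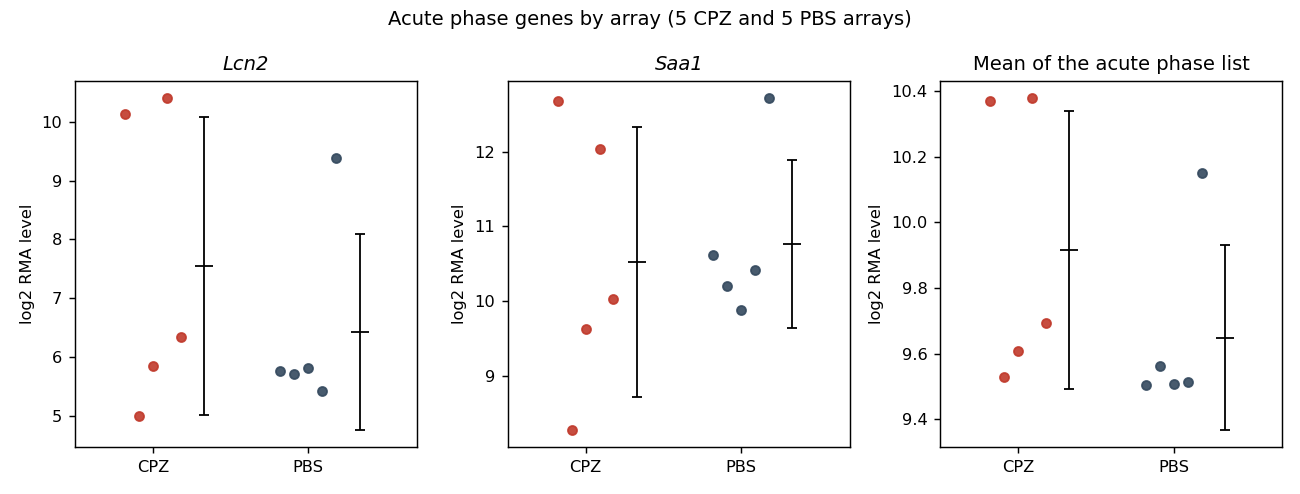
Log2 RMA level (vertical axis) of Lcn2, Saa1 and the mean of the 31 acute phase genes in the 5 CPZ and 5 PBS arrays; points are arrays, and the black mark and bar are the mean and SD. For Lcn2, CPZ arrays 1 and 11 (10.13 and 10.41) and PBS array 20 (9.39) sit above the others, which lie between 5.01 and 6.34.

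The CPZ response was set beside that to EE2, which shares no arrays with it and also causes cholestasis. EE2 minus oil called 7560 genes (45.9%), 19.2% higher and 26.7% lower. Of the 73 genes CPZ raised, 33 were higher and 19 lower with EE2, and of the 58 it lowered, 36 were lower and 10 higher. The difference between the responses, CPZ minus EE2, each against its own vehicle, was called for 5209 of all genes (31.6%) and for 80 of the 131. The CPZ minus PBS change that gave the 131 calls is also part of this difference, so their larger share is partly built in. Because the vehicles differ, any gap between the oil and PBS means is part of this difference. Cyp2b10 rose with both: 4.07 with CPZ and 4.36 with EE2, and the difference of -0.30 ± 0.36 did not pass (limma adjusted p = 0.558). Gadd45g (1.98 with CPZ, 2.84 with EE2) and Cyp2c29 (0.43 with CPZ, 0.37 with EE2) also gave differences that did not pass (adjusted p = 0.155 and 0.566). Gys2 fell with both, by -0.47 with CPZ and -0.45 with EE2 (difference -0.01 ± 0.09).

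Other P450 and hepatocyte genes parted between the drugs. Cyp2c55 rose by 1.54 with CPZ and stood at 0.01 with EE2, a difference of 1.53 ± 0.27 (limma adjusted p = 0.000165). Cyp2c54 rose by 0.65 with CPZ and fell by 3.59 with EE2, a difference of 4.24 ± 0.19 (limma adjusted p = 9.78e-13). Avpr1a stood at 1.08 with CPZ and -0.19 with EE2 (difference 1.27 ± 0.21, limma adjusted p = 8.42e-05), and Lgr5 at 1.18 with CPZ and -0.99 with EE2 (difference 2.16 ± 0.26, limma adjusted p = 2.68e-06). The oil mean of Lgr5 lay above its PBS mean, and that gap is part of its difference. Acnat2 rose less with CPZ (1.28) than with EE2 (2.85), by -1.57 ± 0.40 (limma adjusted p = 0.00487). Cyp2b9 stood at 0.72 with CPZ and 4.24 with EE2 (difference -3.52 ± 0.54, limma adjusted p = 3.77e-05).

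Cell type markers parted too. Macrophage markers had a median of 0.47 with CPZ and 1.44 with EE2, and Adgre1 (0.63 with CPZ, 1.43 with EE2) differed by -0.81 ± 0.19 (limma adjusted p = 0.0029). Marco differed the other way, with 1.24 with CPZ and -0.17 with EE2 (difference 1.41 ± 0.46, limma adjusted p = 0.0235). The oil mean of Marco lay 0.67 above its PBS mean, and that gap is part of its difference. With CPZ, Marco was called neither against PBS nor against oil (CPZ minus oil 0.58, limma adjusted p = 0.496). Endothelial markers had a median of 0.22 with CPZ and -0.25 with EE2, and Clec4g (0.45 with CPZ, -0.67 with EE2) differed by 1.13 ± 0.11 (limma adjusted p = 1.02e-07). Tek (0.43 with CPZ, -0.68 with EE2) differed by 1.11 ± 0.13 (limma adjusted p = 2.37e-06). For Clec4g and Tek the oil mean lay above the PBS mean (by 0.27 for Clec4g), and that gap is part of the difference. Ulk1, which fell by 0.38 with CPZ, stood at 0.37 with EE2 (difference -0.75 ± 0.11, limma adjusted p = 1.37e-05), and Arsa at -0.37 with CPZ and 0.67 with EE2 (difference -1.04 ± 0.12, limma adjusted p = 1.03e-06). Clec2h and Hectd2os fell far less with CPZ (-0.84 and -0.74) than with EE2 (-5.36 and -4.28), with differences of 4.52 ± 0.27 and 3.54 ± 0.20.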

How the data were processed

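Total RNA of the left lateral liver lobe, kept in RNAlater and isolated with the RNeasy kit, was biotin-labelled (3' IVT Express, Affymetrix), per the labels. The authors deposited log2 levels made with RMA, per the submitters' processing notes, at 1 value per gene and array; the sources used here do not state the probe definition, genome build or filters. The values were used as deposited. Of 17306 probe sets, 16464 had 1 gene symbol through their Entrez number and were tested, and 842 were unnamed here. Arrays carry no read depth, so their number limits the precision.

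A model with 1 mean for each of the 4 groups was fitted over the 20 arrays (R 4.3.3, limma 3.58.1, default lmFit, contrasts.fit and eBayes; 16 residual and 4.25 prior degrees of freedom), so the spread is shared over the groups. The contrasts were CPZ minus PBS, the CPZ response minus the EE2 response, and the groups against oil. P-values are two-sided and adjusted by Benjamini-Hochberg over the 16464 genes of a contrast, and a gene was called under 0.05. Errors of differences are limma standard errors.

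Samples, 50 gene lists (960 genes, 811 measured) and the genes to name were chosen with earlier results of these data known. Array values are given for the 14 largest called rises and falls; up to 4 members of lowest p and all called members of a described list, and a set of fixed genes, were open to naming. Alternatives were quantile normalization, centring, leaving out the dimmest 30% of genes, sample number as a covariate, the 10 arrays alone, array weights, an intensity trend with robust prior, a minimum change of 0.25, both vehicles pooled, an adjusted p under 0.10, and each array left out. On simulated data for CPZ minus PBS with 16464 genes, the test recovered 32% of 50 genes shifted by 0.25, 78% of 50 shifted by 0.5 and 100% of 50 each shifted by 1 and 2, with 9 false calls among 164. Promoter windows of RefSeq (GRCm38.p6) existed for 107 of the 131 called genes.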

Additional observations from a re-analysis of the deposited data

Results flagged for a closer look

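In 18 of 220 groups of 5 arrays (60 genes and 50 list means, CPZ and PBS groups apart) 1 array stood far from the other 4 of its group by Dixon's test; chance gives about 1 in 20. PBS array 20 stood apart upward for Lcn2 (9.39, others 5.43 to 5.81), Saa1 (12.72, others 9.88 to 10.61) and the means of the acute phase list (10.15, others 9.51 to 9.56), the neutrophil list (4.93, others 4.07 to 4.18) and the chlorpromazine receptor list (3.31, others 3.26 to 3.27), and downward for Fam89a (4.95, others 5.46 to 5.63).

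In CPZ array 3, Cyp2b9 (6.44, others 3.70 to 4.19) and the PPARalpha list mean (8.71, others 8.37 to 8.46) were high. CPZ array 11 was high for Dbp (10.51, others 10.04 to 10.13) and low for Slco1a1 (10.74, others 11.10 to 11.19), an organic anion uptake carrier. CPZ array 4 was low for the clock gene Per1 (5.78, others 6.87 to 7.01) and for Fmo5 (9.83, others 10.13 to 10.17), a monooxygenase. CPZ array 1 was low for the heat shock list mean (7.14, others 7.23 to 7.26).

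Among the other PBS arrays, array 7 was high for the canalicular exporters Abcb11 (11.17, others 10.86 to 10.94) and Abcc2 (11.35, others 10.74 to 10.88), array 14 was high for Hectd2os (7.92, others 7.13 to 7.30), array 10 was low for Gnat1 (6.15, others 6.49 to 6.62) and array 19 was low for the glutamine synthetase gene Glul (11.52, others 11.73 to 11.79).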

How the results depend on the processing

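All 131 called genes kept their direction in each of 11 alternatives and 10 leave-outs, and 3 (Cyp2b10, Cyp2c55 and Avpr1a) kept their call in all of them. Direction could not change where the group means stay as they are. This holds for the filter of dim genes, the trend with robust prior, the 10 arrays alone, the minimum change and the adjusted p under 0.10. The last of these also cannot lose a call. Nor can leaving out 1 array reverse a gene whose groups do not overlap. The counts moved more. Main counts were 73 rises and 58 falls. With the 10 CPZ and PBS arrays alone, 53 of the 131 calls were kept. Centring gave 61 and 111 (35.5% rises, against 55.7%), leaving out the dimmest 30% of genes 93 and 91, array weights 111 and 126, sample number as a covariate 12 and 8, the 10 arrays alone 37 and 27, a minimum change of 0.25 3 and 0, both vehicles pooled 147 and 134, and an adjusted p under 0.10 169 and 165. Without the 3 high Lcn2 arrays, chosen after seeing the data, they were 49 and 55. Quantile normalization gave 69 and 77, and a trend with a robust prior 79 and 68. The counts with 1 array left out ran between 29 and 75 rises and between 18 and 79 falls. The cause of these moves was not tested, beyond fewer arrays or genes by construction. The difference of responses called 5209 genes, 8194 after centring, and 4730 to 5448 otherwise. No paired analysis was possible because the CPZ, PBS, EE2 and oil titles share no number. Fold changes of genes near the lower end of the scale are compressed by array background.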
